A study of Danio rerio with 12 samples.

Results

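The 6 libraries numbered replicate 1 or 2 were compared with the 6 numbered replicate 3 or 4, which together are all 12 libraries of the series. Each set held 2 libraries of each condition, and condition was kept as a blocking factor. The split was chosen by the values themselves: it was noticed on the second principal component of these same counts. Every difference between the sets below is therefore a description of what the choice rested on, and not a test of it, and p-values of fits that hold the set are not independent of the choice. Differences are given as replicates 1 and 2 over replicates 3 and 4.

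The fish were wild type by genotype, their strain was given as not applicable, and their age was given as 2 to 3 months. By the study's methods they were bought at the upper end of that range and then kept for more than a month, so the methods make them older at sampling than the labels do. Fast fish had gone 24 h without food, Refed_3h fish were taken 3 h after they were fed again, and Refed_8h fish 8 h after. Each condition held 4 separate fish, 2 females and 2 males by the study's methods, and poly(A) RNA of the muscle between anus and tail fin was sequenced from each. The hour of sampling moved with the condition, so time of day and time since feeding cannot be told apart. Neither the labels nor the methods give the sex of any library, what the replicate numbers stood for, or whether numbers 1 and 2 were handled apart from 3 and 4. No sex was assigned to a library here.

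Adult zebrafish muscle is mostly fast fibres, with a thinner layer of slow fibres, and tissue cut from the trunk can carry skin, scale, vessel, nerve and blood cells. Sex in zebrafish is set by many loci and by rearing, and in some wild strains by a locus on chromosome 4, so no chromosome in a domesticated stock marks sex as a Y chromosome does in mammals. Ovary and testis show very different transcripts, while genes that differ by sex outside the gonads and liver are fewer, and yolk precursors made by the female liver are the usual marker.

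Counts assigned to genes summed to 11929140 to 18446239 per library, and 13 mitochondrial genes took 10.73% to 17.44% of them. Total counts averaged 15386567 ± 862118 (SD, n = 6) in replicates 1 and 2 and 15650426 ± 2260994 in replicates 3 and 4. The difference of -263860 was within the spread between libraries (exact permutation test within conditions, two-sided, p = 0.71, 216 arrangements, of which the smallest possible p is 0.0093). Of the 25281 genes in the table, 16745 passed the filter on low counts. Genes of fast fibres made up 44460 to 82440 TPM (a level scaled for gene length and library size) of each library, and genes of skin epithelium 16000 to 33050 TPM.

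The second principal component of the tested genes held 16.3% of the variance, beside 18.8% on the first. In Fast its scores were 15.7 and 56.1 for replicates 1 and 2 and -35.7 and 2.0 for replicates 3 and 4. In Refed_3h they were -4.1 and 31.2 against -23.4 and -11.6. In Refed_8h they were 30.7 and 13.2 against -46.3 and -27.8. The sets did not overlap within any condition, but over all conditions they did, since replicate 1 of Refed_3h lay below replicate 4 of Fast. Of the total sum of squares over the tested genes, condition held 30.1%, the set 12.9%, their interaction 14.1%, and fish within a set and condition 42.9%. These shares rest on 2, 1, 2 and 6 degrees of freedom in that order, so they do not compare directly. Per degree of freedom the interaction held about as much as fish within a set and condition.

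**Figure D1:**
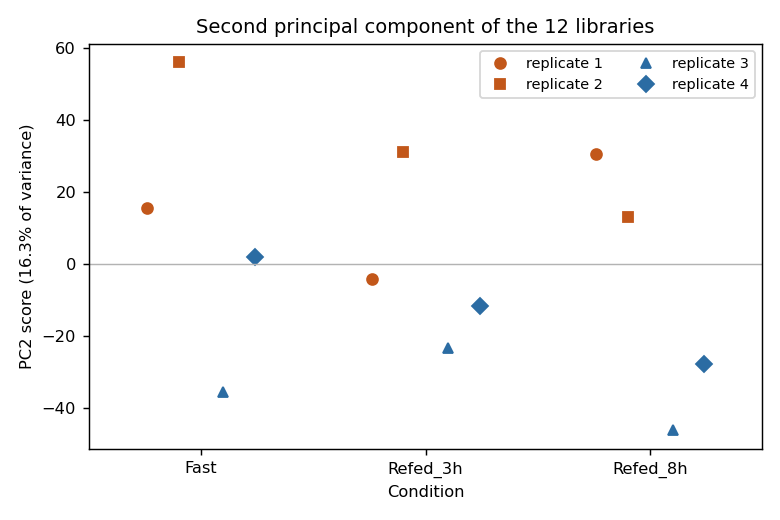
Scores on the second principal component (y axis, no unit, from log2 CPM of the tested genes) by condition (x axis), 1 point for each library. Replicates 1 and 2 (orange) lie above replicates 3 and 4 (blue) in every condition, and the lowest orange point, at -4.1 in Refed_3h, lies below the highest blue point, at 2.0 in Fast.

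Few single genes met a strict rule. A gene was called where edgeR's quasi-likelihood fit gave it an adjusted p below 0.05 together with at least a 2-fold difference. Between the sets 3 genes were called, which is 0.0179% of those tested, 2 higher and 1 lower in replicates 1 and 2. DESeq2 called 155 (0.963% of the 16095 genes to which it gave an adjusted p), 90 higher and 65 lower. The count moved with single libraries: it was 42 without replicate 1 of Fast, 14 without replicate 4 of Fast, 9 without replicate 1 of Refed_3h, 0 without replicate 2 of Refed_3h, 1 without replicate 1 of Refed_8h and 14 without replicate 2 of Refed_8h. By order of the libraries alone, both libraries of replicates 1 and 2 lay above both of replicates 3 and 4 in each condition for 406 genes (2.42%), and below them for 231 (1.38%). Genes of these 2 kinds are called separated below (ordered on TMM-scaled log2 CPM, counts per library size, so that TPM can still overlap). Each count of separated genes in a list below is to be read beside these shares. Not all of the 155 genes called by DESeq2 were separated. Among them was f13a1a.1 (log2 fold change -9.85), high in replicate 1 of Refed_3h but not in replicates 3 and 4. Another was krt96 (-3.58), high in replicate 4 of Refed_3h and of Refed_8h alone. The median log2 fold change of all tested genes was -0.003, and 90% of them lay between -0.69 and 0.61.

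The gene selenom encodes selenoprotein M, a small protein of the endoplasmic reticulum (chromosome 5, 69278089 to 69287567 on GRCz11). In replicates 1 and 2 it stood at 22.9 and 22.5 TPM in Fast, 21.3 and 33.4 in Refed_3h, and 38.5 and 34.4 in Refed_8h. In replicates 3 and 4 it stood at 6.83 and 10.3 TPM in Fast, 10.1 and 10.1 in Refed_3h, and 14.1 and 15.3 in Refed_8h. All 6 libraries of replicates 1 and 2 lay above all 6 of the others, with means of 28.8 ± 7.45 and 11.1 ± 3.08 TPM (SD, n = 6) and a log2 fold change of 1.31 (SE 0.14). It was called in 11 of the 12 fits that left out 1 library, and lost without replicate 2 of Refed_3h.

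The gene cavin1a encodes a coat protein of caveolae, the small pits of the cell membrane that are dense in muscle (chromosome 3, 16976095 to 17012340). Its levels in replicates 1 and 2 were 9.10 and 5.43 TPM in Fast, 5.19 and 4.84 in Refed_3h and 5.15 and 5.97 in Refed_8h. In replicates 3 and 4 they were 16.2 and 9.31, 11.8 and 13.3, and 13.3 and 15.6 TPM in the same order of conditions. The lowest of these, replicate 4 of Fast, lay just above the highest of the other set, replicate 1 of Fast. The log2 fold change was -1.24 (SE 0.17), and the gene was called in 3 of the 12 fits that left out 1 library, those without replicate 1 or 4 of Fast or replicate 2 of Refed_8h.

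The third called gene, zgc:194221 (ENSDARG00000039687, chromosome 22, 2680895 to 2682759), has a clone name and lay outside the rule for named genes. It had 18 and 50 counts in replicates 1 and 2 of Fast, 42 and 57 in Refed_3h and 42 and 43 in Refed_8h, and 0 in all 6 libraries of replicates 3 and 4. Against a floor of 3 counts over the set it was at least 85.4-fold higher in replicates 1 and 2. Of all 25281 genes it was the only one with counts in every library of a set and none in any library of the other.

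**Figure D2:**
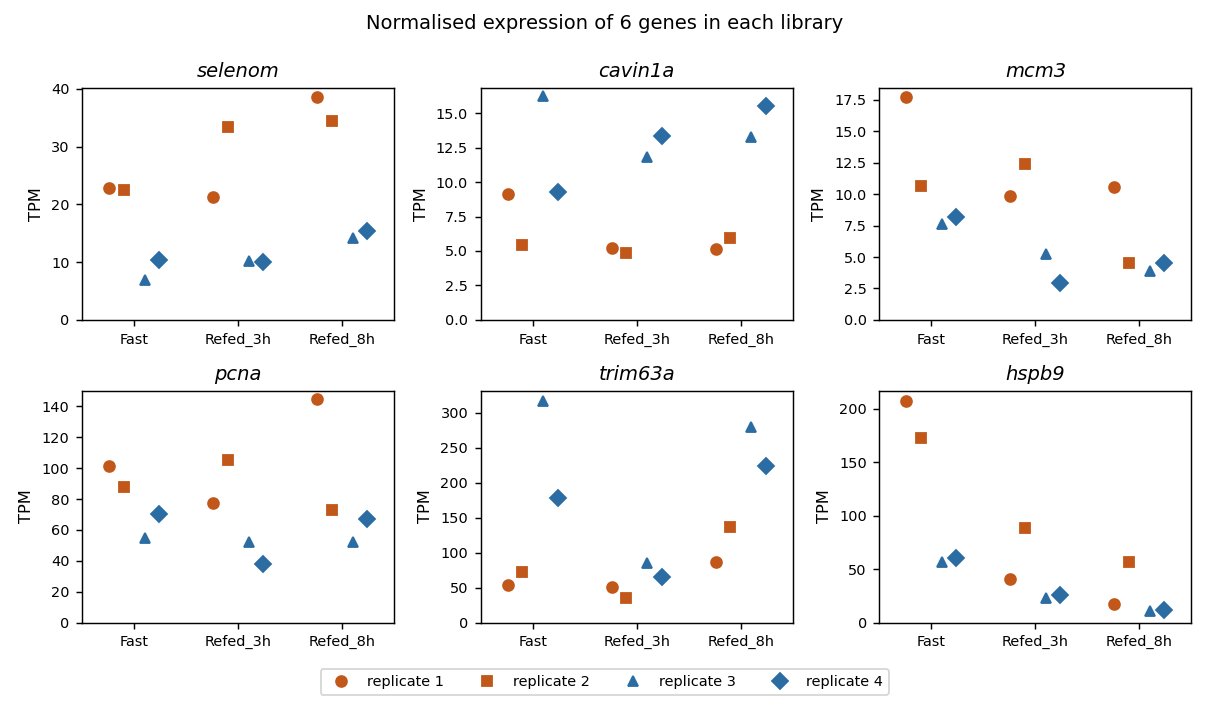
Normalised expression in TPM (y axes, from 0) of selenom, cavin1a, mcm3, pcna, trim63a and hspb9 by condition (x axes), 1 point for each library. For selenom all orange points (replicates 1 and 2) lie above all blue points (replicates 3 and 4), for cavin1a all lie below, for pcna all lie above, and for trim63a and hspb9 the colours are apart within each condition but not over all conditions.

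Genes of the cell cycle lay on the side of replicates 1 and 2. All 30 tested members of the list were higher in replicates 1 and 2, with a median log2 fold change of 0.82 beside -0.003 over all genes, and 12 were separated in every condition (beside 2.42% of all genes). By condition the list median came to 0.70, 0.70 and 0.89 for Fast, Refed_3h and Refed_8h. DESeq2 called 2 of the 30, aurkb and plk1, which are kinases of mitosis, beside 0.963% of all genes to which it gave an adjusted p. In other lists it called 3 of 14 bone and scale genes, all higher, and 2 of 21 muscle wasting genes, both lower. It also called 2 of 28 growth hormone and insulin-like growth factor genes, both lower. Among the genes of DNA replication, pcna, the sliding clamp, stood at 102 and 87.7 TPM in Fast, 77.4 and 106 in Refed_3h and 145 and 73.1 in Refed_8h for replicates 1 and 2. For replicates 3 and 4 pcna stood at 55.0 and 70.5, 51.9 and 38.2, and 52.2 and 67.3 TPM. No library of pcna crossed between the sets. The log2 fold change of pcna was 0.75 (SE 0.13), that of mcm3, a subunit of the replicative helicase, 0.96 (SE 0.17), and that of stmn1a, which destabilises microtubules, 0.95 (SE 0.18). The summed level of the list was 374.9 to 809.1 TPM in replicates 1 and 2 and 243.9 to 453.3 in replicates 3 and 4, so it overlapped over conditions.

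Skin epithelium markers leaned the same way. All 26 skin markers were higher in replicates 1 and 2, with a median log2 fold change of 0.27, but none was separated in every condition. The most abundant, krt5, averaged 7184 TPM in replicates 1 and 2 and 6298 TPM in replicates 3 and 4. With the skin score as a covariate the cell cycle median was 0.61, and with the cell cycle score the skin median was -0.14. Both scores were chosen after the values were seen. The cell cycle score was itself higher in both libraries of replicates 1 and 2 than in both others in each condition. In Fast it was 3.242 and 3.296 against 2.215 and 2.843. It thus shares the pattern of the set, and medians fitted with it cannot show what a list owes to the cell cycle genes. Which cells of the tissue held the cell cycle transcripts was not tested, and in bulk tissue fewer cells of a type and less RNA per cell cannot be told apart.

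Genes of bone and scale were also higher in replicates 1 and 2, in 12 of 14 tested members with a median of 0.78, and 2 of them were separated. By condition the list median came to 1.01, 0.14 and 1.37 for Fast, Refed_3h and Refed_8h. The gene col10a1b, for collagen X, stood at 821 and 753 TPM in Fast, 313 and 430 in Refed_3h and 506 and 945 in Refed_8h for replicates 1 and 2. In replicates 3 and 4 col10a1b stood at 73.4 and 137, 115 and 282, and 102 and 53.9 TPM. The sets of col10a1b did not overlap in TPM but did in TMM-scaled CPM within Refed_3h, and its log2 fold change was 2.3 (SE 0.54). The gene sp7, the osteoblast factor osterix, was separated at 0.91 (SE 0.24), and bglap, which encodes osteocalcin, at 1.07 (SE 0.34). A pair of matrix genes outside the list, named after their values were seen, were ambn at 2.25 (SE 0.56) and scpp7 at 3.14 (SE 0.79), and both overlapped in 1 condition. Collagens were higher in 21 of 28 members, with a median of 0.31. The amount of scale in each piece of tissue was not tested.

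Other lists that leaned upwards in replicates 1 and 2 were less even. Immediate early genes, which respond within minutes to stress or handling, were higher in 20 of 23 members with a median of 0.55, and none was separated. Their median was lower in Fast, at 0.18, than in Refed_3h (0.45) and Refed_8h (0.65). The list of endoplasmic reticulum chaperones, which also holds transcription factors of the stress response, was higher in 24 of 25 members with a median of 0.28. Its separated members were sdf2l1 and the transcription factor gene atf4b. Genes of cholesterol synthesis were higher in 22 of 25 with a median of 0.54. Their median was 1.22 in Fast, but -0.02 in Refed_3h and 0.23 in Refed_8h fish. The small heat shock gene hspb9 stood at 207 and 173 TPM against 56.6 and 60.3 in Fast, 40.7 and 88.7 against 23.2 and 25.3 in Refed_3h, and 16.9 and 56.2 against 10.6 and 11.9 in Refed_8h. It was separated in each condition at a log2 fold change of 1.56 (SE 0.31), and it was the separated one of 21 heat shock chaperones, of which 10 were higher.

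**Figure D3:**
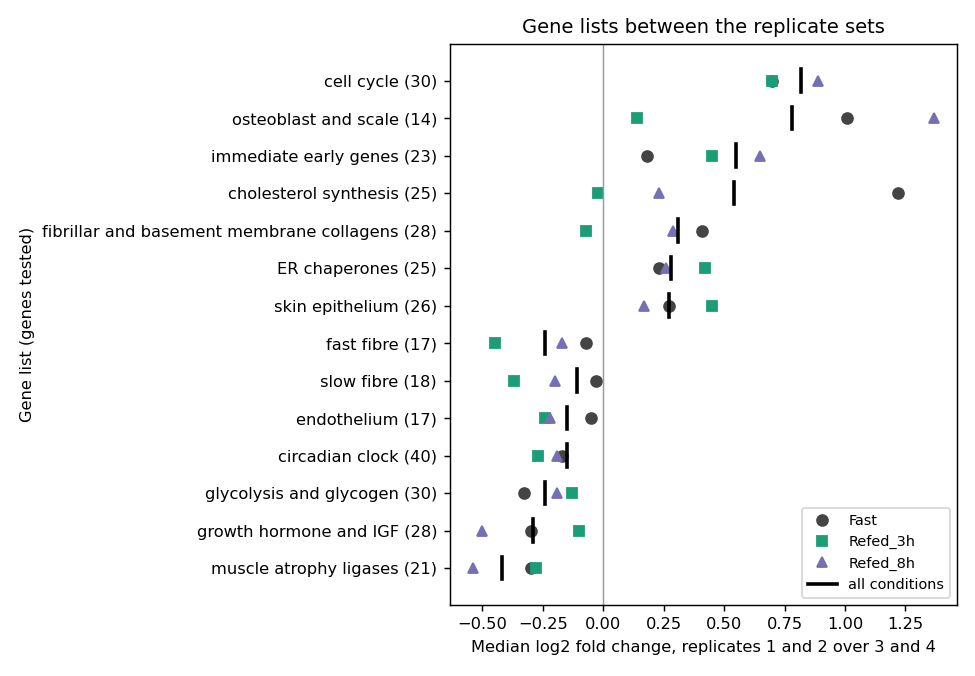
Median log2 fold change between the sets (x axis) for 14 gene lists (y axis, number of tested genes in brackets), with 1 symbol for each condition and a black bar for all conditions together. The cell cycle list lies between 0.70 and 0.89 in every condition, the muscle atrophy ligases between -0.54 and -0.28, and the osteoblast and scale list ranges from 0.14 in Refed_3h to 1.37 in Refed_8h.

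Genes of muscle wasting lay on the other side. Of 21 tested ubiquitin ligase and FoxO genes, 19 were lower in replicates 1 and 2, with a median of -0.42, and 2 were separated. The gene trim63a encodes MuRF1, a ligase that marks sarcomere proteins for degradation. It stood at 53.2 and 72.9 TPM in Fast, 50.3 and 35.7 in Refed_3h and 87.0 and 136 in Refed_8h for replicates 1 and 2. For replicates 3 and 4 trim63a stood at 317 and 178, 84.8 and 64.5, and 280 and 224 TPM. The sets of trim63a did not overlap within a condition, and its log2 fold change was -1.34 (SE 0.26). The adaptor klhl38b was at -1.80 (SE 0.38) but overlapped in Refed_3h, where it was near 0, and fbxo32, which encodes atrogin-1, was at -0.85 (SE 0.53) with overlap in 2 of 3 conditions. The 2 separated members were trim63a and fbxo30a.

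The lists of growth signalling and clock genes leaned the same way, by less. Both lists hold activators together with inhibitors or repressors, so their medians give no direction of signalling or of the clock. Of 28 genes of growth hormone and insulin-like growth factor signalling, 23 were lower in replicates 1 and 2 with a median of -0.29. That median was -0.10 within Refed_3h and -0.50 within Refed_8h. With the cell cycle score as a covariate, a score that itself differed between the sets, it was -0.02. The only separated one was socs2, an inhibitor of growth hormone signalling, at -1.37 (SE 0.30), beside 1.38% of all tested genes separated lower. Of 40 clock genes 34 were lower, but the median was only -0.15, and arntl1b, 1 of the BMAL activators, was the separated one at -0.99 (SE 0.18). Separated genes outside the lists that were lower included prodha, a proline dehydrogenase, at -1.40 (SE 0.27), c4 of the complement system at -0.96 (SE 0.19), rapsn of the neuromuscular synapse at -0.84 (SE 0.20) and scn4ab, a muscle sodium channel, at -0.81 (SE 0.16). Higher ones included glulb, a glutamine synthetase, at 0.88 (SE 0.19) and tubb2b, a tubulin, at 0.85 (SE 0.16).

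Markers of other cells were as follows. Endothelial genes were lower in 16 of 17 members, with a median of -0.15, and tie1 and kdrl were separated. Fast fibre genes were lower in 13 of 17 (median -0.24), slow fibre genes in 14 of 18 (-0.11), and leukocyte genes were higher in 14 of 19 (0.12). Erythrocyte genes had a median of 0.14 and Schwann cell and nerve genes of -0.06, with none separated. Among pigment cells, xanthophore genes were higher in 8 of 10 (0.28, and 0.82 in Fast). Melanophore genes were lower in 4 of 7 (-0.10) and iridophore genes in 9 of 14 (-0.13). Adipocyte genes were lower in 5 of 8 (-0.25). Of the pigment cell and adipocyte genes, gart of the iridophore list was the separated one, and was higher. Of the markers in the table, 3 of 16 for liver, 3 of 22 for pancreas and gut and 3 of 10 for heart passed the filter. Their medians were -0.11, -0.25 and -0.01 in that order.

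Sex-related genes were then examined, since each condition held as many females as males. The 7 lists held 106 genes of the table, of which 37 passed the filter. None of the 37 was called by edgeR, and 9 had an unadjusted p under 0.05, a larger share than the 2846 of all 16745 tested genes. DESeq2 called 2, trim63a and mylk4b, beside 0.963% of all genes to which it gave an adjusted p. Both are listed as androgen targets known from mammals. Of the 16 tested androgen and estrogen targets, 6 had an unadjusted p under 0.05, also a larger share. The same 2 genes were the separated ones among these 16, both lower in replicates 1 and 2. The cause of these shares was not tested. Of the 21 tested genes in the 6 lists of gonads, yolk and sex steroids, 12 were higher and 9 lower in replicates 1 and 2, with a median of 0.13, neither tool called any, and 3 had an unadjusted p under 0.05, no larger a share than among all tested genes. Of these 21, 1 was separated, higher in replicates 1 and 2, beside 2.42% of all tested genes separated that way and 1.38% the other way.

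Transcripts of the gonads were at or near the detection limit. Of 28 oocyte and ovary genes, 2 passed the filter, and none of the other 26 had more than 16 counts in any library. The largest such count was for zar1, an oocyte gene, in replicate 2 of Fast, with 13 in replicate 4 of Fast. Of 20 testis genes 4 passed, and the other 16 had at most 8 counts in a library. Of 7 vitellogenins, the yolk precursors, only vtg3 passed, with 17, 14, 2 and 0 counts in replicates 1 to 4 of Fast, 19, 1, 5 and 11 in Refed_3h, and 14, 4, 5 and 4 in Refed_8h. The sets of vtg3 overlapped in Refed_3h and Refed_8h. The meiotic gene sycp1 had 41 to 217 counts in every library and a log2 fold change of 0.41 (SE 0.21), and was not separated.

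Among the genes made by gonadal somatic cells, amh, for anti-Müllerian hormone, was the separated one. It had 26 and 15 counts against 7 and 11 in Fast, 13 and 15 against 4 and 11 in Refed_3h, and 14 and 11 against 5 and 10 in Refed_8h. The log2 fold change of amh was 0.88 (SE 0.30), from 0.51 ± 0.22 against 0.25 ± 0.084 TPM (SD, n = 6), a difference that rests on few counts. The gene gsdf, another factor of the testis, leaned the other way at -0.65 (SE 0.45).

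Receptors and enzymes of sex steroids each split between the directions. Of 5 tested receptors 2 were higher and 3 lower, and of 8 tested enzymes 5 were higher and 3 lower. The receptor gene pgrmc1 was higher at 0.18 (SE 0.09). Among the enzymes, srd5a2b was higher at 1.18 (SE 0.59) and srd5a1 lower at -0.76 (SE 0.48), and neither was separated. The estrogen receptor esr2a was at -1.26 (SE 0.46), with 16 and 11 counts against 34 and 22 in Fast, 35 and 9 against 24 and 23 in Refed_3h, and 6 and 12 against 40 and 71 in Refed_8h, so that it overlapped in Refed_3h. The androgen receptor ar was at -0.42 (SE 0.26), and esr2b at -0.09 (SE 0.17). The steroid reductase srd5a2a stood at 52.7 and 59.4 TPM against 22.9 and 22.9 in Fast, 35.1 and 56.4 against 24.3 and 23.4 in Refed_3h, and 23.0 and 8.76 against 8.96 and 10.9 in Refed_8h. Its sets were apart in Fast and Refed_3h and overlapped in Refed_8h, at a log2 fold change of 0.89 (SE 0.19). The dehydrogenase hsd3b7 was at 0.85 (SE 0.49), and its TPM overlapped in Refed_3h and Refed_8h. It was kept in the list of these enzymes by its gene family, which does not show that it acts on sex steroids.

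**Figure D4:**
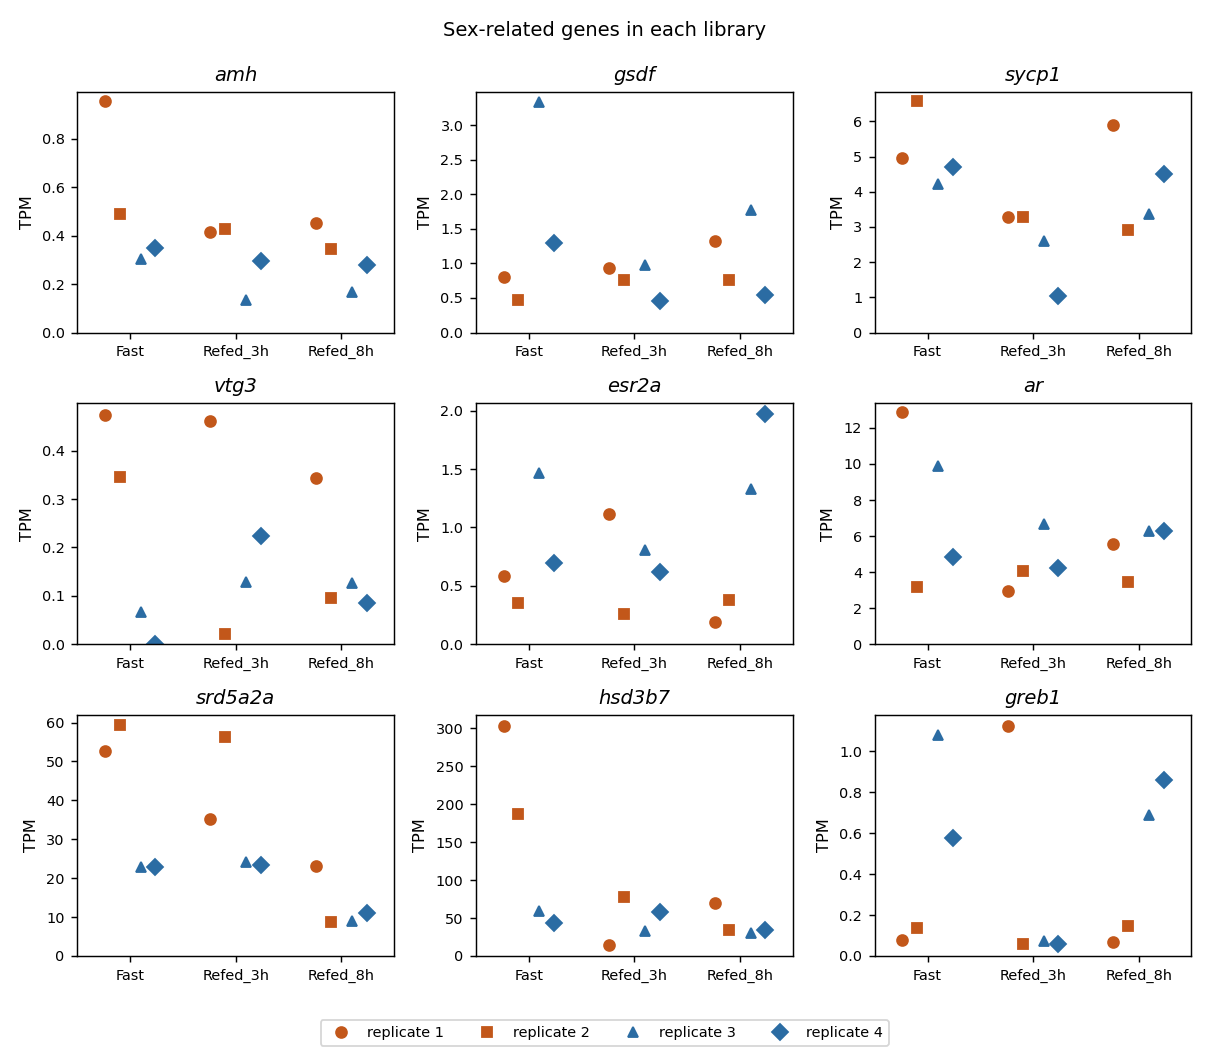
TPM (y axes, from 0) of 9 genes of the sex-related lists by condition (x axes), 1 point for each library, with replicates 1 and 2 in orange and 3 and 4 in blue. For amh the orange points lie above the blue ones in each condition, while for greb1 the points above 0.5 TPM are replicates 3 and 4 of Fast and Refed_8h and replicate 1 of Refed_3h.

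Chromosome 4 held 17 separated genes of 869 tested (1.96%), 9 higher and 8 lower, the lowest share of chromosomes 1 to 25. Over all tested genes 2.42% were separated higher and 1.38% lower. The highest shares were on chromosomes 19 (5.80%), 25 (5.21%) and 18 (5.17%). The gene greb1, an estrogen target in mammals, had 5 and 10 counts against 59 and 43 in Fast, 83 and 5 against 5 and 5 in Refed_3h, and 5 and 11 against 49 and 73 in Refed_8h. Its high libraries were thus replicates 3 and 4 of Fast and Refed_8h, as in the split, but replicate 1 alone in Refed_3h.

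A search for genes near all or none, made after the values were seen, gave 33 tested genes whose libraries fell into groups far apart (a gap of 4 in log2(CPM + 0.1), and at least 1 CPM in every high library). None of the 33 had its gap between the sets, and in 32 of them the high libraries came from both sets. They followed 23 different patterns over the libraries. The gene zgc:194221, with few counts, fell just short of this gap.

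The widest gap was in f13a1a.1, a gene for the A subunit of coagulation factor XIII (chromosome 24, 2495197 to 2515623). It had 1 and 1 counts against 10301 and 6537 in Fast, 6299 and 3 against 4 and 20 in Refed_3h, and 14 and 5 against 8031 and 19967 in Refed_8h. DESeq2 called f13a1a.1 between the sets, although its libraries crossed them in Refed_3h. Its 5 high libraries were the same 5 as those of greb1. The neighbouring F13A1 (2470061 to 2480898) was high in those 5 as well, at 2.37 to 19.6 TPM against 0 to 0.13 TPM elsewhere, and how reads were divided between these similar genes is not stated, so its level is uncertain.

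Genes of antigen presentation held the most common pattern. The immunoproteasome genes psmb8a, psmb9a, psmb12 and psmb13a and the peptide transporter tap2a, all between 7105838 and 7144585 on chromosome 19, were high in the same 7 libraries. These were replicates 2 and 4 of Fast, 2 and 3 of Refed_3h, and 2, 3 and 4 of Refed_8h. For psmb8a the counts were 3, 787, 2 and 1239 in replicates 1 to 4 of Fast, 3, 549, 712 and 10 in Refed_3h, and 4, 790, 731 and 687 in Refed_8h. The annotated spans of psmb8a and psmb13a overlap, and both contain those of psmb12, psmb9a and tap2a. The counts of these genes are therefore not taken as separate evidence. The class II gene mhc2b (chromosome 8) followed another pattern, with 1740 to 4838 counts in replicates 1 and 3 of Fast, 4 of Refed_3h and 1 and 3 of Refed_8h, and 0 to 61 in the others. These genes varied from fish to fish across both sets.

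The ciliary gene cfap70 (chromosome 3) was high in the libraries numbered 1. It had 159, 230 and 258 counts in replicate 1 of Fast, Refed_3h and Refed_8h, 16, 9 and 17 in replicate 2, and 0 to 6 in replicates 3 and 4. Its levels in replicate 2 lay above all those in replicates 3 and 4 but far below those in replicate 1.

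**Figure D5:**
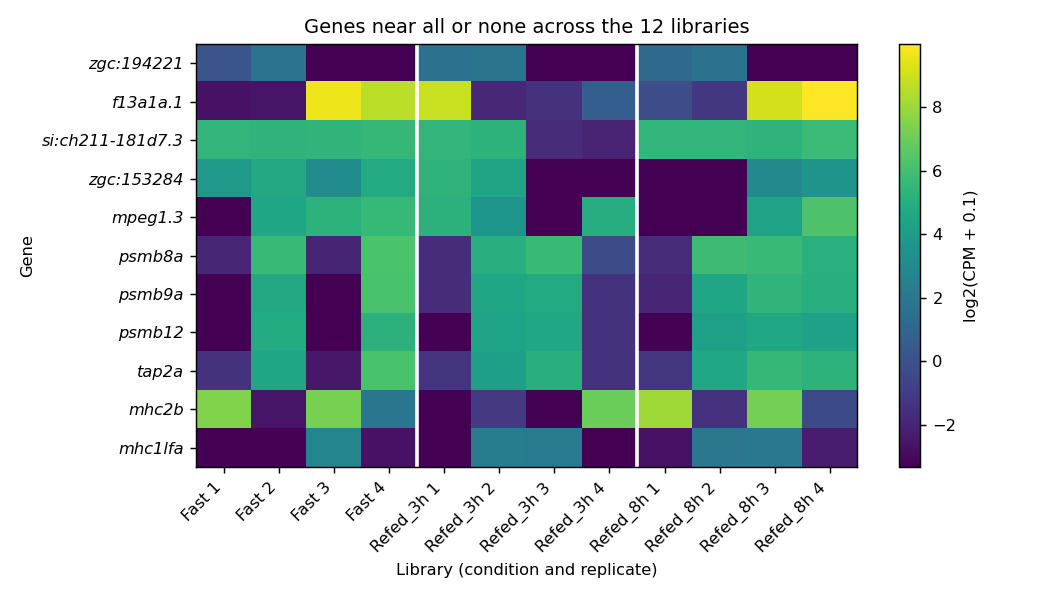
Levels as log2(CPM + 0.1) (colour) of 11 genes (rows) in each of the 12 libraries (columns, white lines between conditions). The top row, zgc:194221, has few counts and lies above the darkest colour only in replicates 1 and 2, while f13a1a.1 is bright in 5 libraries. The 4 genes from psmb8a to tap2a are bright in the same 7 libraries, which come from both sets.

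Whether the set difference varied between conditions was examined with the interaction of condition and set. The split was noticed on the order of the sets within each condition in these same counts, so this test is not fully independent of the choice. At an adjusted p under 0.05, edgeR called 2 genes (0.0119%), and 631 had an unadjusted p under 0.05. DESeq2 called 44. The first gene was si:ch211-181d7.3 (chromosome 15, 42741272 to 42760110), listed as nlrc11, a NOD-like receptor gene, in the table of gene names. It stood at 7.17 and 7.23 TPM in replicates 1 and 2 of Refed_3h and at 0.039 and 0.021 in replicates 3 and 4, and at 7.40 to 11.3 TPM in the other 8 libraries. The sets of si:ch211-181d7.3 were thus far apart in Refed_3h and overlapped in Fast and Refed_8h (interaction adjusted p = 5.0e-06, edgeR). This gene is also among the 33 near all or none, and its result rests on 2 fish with almost no counts assigned to it. The other was its neighbour si:ch211-181d7.1_2 (42723126 to 42736433) at 0.091 and 0.097 TPM in the same libraries and 1.56 to 4.25 elsewhere (adjusted p = 0.011, edgeR). Its call was lost without replicate 3 or 4 of Refed_3h (adjusted p = 0.21 and 0.18, edgeR) and without replicate 3 of Refed_8h (adjusted p = 0.053).

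The gene zgc:153284 was at 0 counts in replicates 3 and 4 of Refed_3h and in replicates 1 and 2 of Refed_8h, with 108 to 548 counts in the other 8 libraries, and did not pass the interaction test. Other genes among those of smallest unadjusted p also missed it. For mybpha, a myosin-binding protein, the set differences were 0.98 in Fast, -1.002 in Refed_3h and 1.54 in Refed_8h. For pfkfb4b, a regulator of glycolysis, they were -0.08, -0.43 and -2.78, and for cish, another inhibitor of growth hormone signalling, -0.31, 0.04 and -1.74.

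The comparisons between conditions were repeated with the set as a block. For Refed_3h vs. Fast, 424 differentially expressed genes (DEGs, by the same rule as above, 2.53% of tested genes, 137 higher and 287 lower) were found with the set and 347 without it, of which 340 were shared. For Refed_8h vs. Fast there were 212 (1.27%, 76 higher and 136 lower) and 165, with 162 shared. For Refed_8h vs. Refed_3h there were 560 (3.34%, 349 higher and 211 lower) and 466, with 451 shared. These comparisons share libraries with each other. Since the set was chosen on these counts and takes up spread within conditions, a gain in calls follows in part from the choice, and the gains are given as a description. The split into higher and lower depended on scaling: limma on log2(TPM + 1), with no TMM scaling, gave 26 higher and 385 lower for Refed_3h vs. Fast and 252 higher and 54 lower for Refed_8h vs. Refed_3h, and the median of all genes moved to -0.256 and 0.181. With log2(TPM + 0.1) the splits were 46 and 821, and 524 and 92.

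Of the genes that were DEGs only with the set, 9 of 84, 10 of 50 and 26 of 109 were separated between the sets, in the order above. Among all tested genes 2.42% were separated higher and 1.38% lower. The set term takes up the spread of separated genes, so a larger share here follows in part from the fit. For klhl38b, a Kelch-like ligase adaptor, the fall from Fast to Refed_3h was -6.62 with a standard error of 0.59 with the set and -6.75 with 1.00 without it (adjusted p = 0.00019 and 0.0052, edgeR). Genes that became DEGs only with the set included hspb9, which fell from Fast to Refed_8h by 2.21 on the log2 scale (adjusted p = 0.014 against 0.19, edgeR), and srd5a2a, which fell by 1.47 (0.0051 against 0.081). Also among them were bglap, which rose from Fast to Refed_3h by 2.00 (0.022 against 0.078), and pdp1, a pyruvate dehydrogenase phosphatase, which rose from Fast to Refed_8h by 2.05 (0.0071 against 0.075). Of the clock genes, nr1d1 and per3 were compared: for nr1d1, a clock repressor, the fall from Fast to Refed_3h was -4.09 with the set and -4.08 without, and for per3 from Fast to Refed_8h it was -4.40 in both.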

How the data were processed

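Poly(A) RNA of 12 muscle samples was sequenced as paired-end reads. The authors used CLC Genomics Workbench and GRCz11. The annotation release, strand setting and handling of reads with several matches are not stated. The authors deposited whole-number counts per gene, not normalized, and TPM, whose sum is equal over libraries. Their RPKM, CPM and their own comparison columns (fold changes, p-values and FDR) were not used.

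The counts went into edgeR 4.0.16 under R 4.3.3 (filterByExpr by condition, TMM, robust quasi-likelihood fit of condition and set, or of condition, set and their interaction). Adjustment was by Benjamini-Hochberg across all 16745 tested genes. Set differences within a condition came from the fit of all 6 cells. Separated genes were ordered on log2 CPM with a prior count of 2. The fit was tested on simulated data, which held differences between the sets but no condition effect and no interaction. That test does not cover these features of the data. The fish were separate animals, and p-values set a difference against the spread between them. The study's methods describe the fish as held together in a small tank, so this spread does not cover differences between tanks or repeats of the experiment.

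The comparison, the members and the 40 gene lists (786 genes found) were chosen with earlier results of these data known. Named genes were the tested sex-related genes; up to 15 called and separated genes each way with at least 5 TPM and a symbol that is no clone name; called list members and the most abundant marker; the 10 such genes of smallest interaction p; and 5 feeding genes. Since few genes were called, separated genes that were not called, other list members, the genes near all or none, cfap70, ambn and scpp7 were named after their values were seen. Alternatives were DESeq2 1.42.0, RLE scaling, no filter, limma 3.58.1 on log2(TPM + 1) and log2(TPM + 0.1) for genes of at least 0.5 TPM, the replicate number as a block, no condition term, no set term, no fold threshold, each condition alone, totals without mitochondrial genes, and each library left out. Scores of skin and cell cycle genes as covariates were chosen after seeing the data. With 1 library left in a set and condition, that library was assumed to vary like the others.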

Additional observations from a re-analysis of the deposited data

Results flagged for a closer look

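Of 45 groups of 4 libraries examined for a library far from the rest, 2 held one, and chance gives about 1 in 20. Replicate 4 of Refed_8h had 1.845e+07 total counts (18446239), beside 15211830 to 15495149 in the other 3 libraries of its condition. Replicate 2 of Fast had a mean of 3.545 log2 CPM over the immediate early genes, beside 3.007 to 3.076 in the other Fast libraries.

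The set difference of si:ch211-181d7.3 changed with condition by the interaction test (adjusted p = 5e-06, edgeR), as did that of its neighbour si:ch211-181d7.1_2 (adjusted p = 0.011, edgeR). Both were near 0 in replicates 3 and 4 of Refed_3h and present in the other 10 libraries, and the first is 1 of the 33 genes near all or none, whose patterns differed from fish to fish. The set was chosen on these counts, so these p-values are not fully independent of it.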

How the results depend on the processing

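The count of 3 genes called between the sets became 155 with DESeq2, 1 in Fast alone and 0 in Refed_8h alone, and it was 0 with a skin or a cell cycle score as a covariate, where the log2 fold change of selenom was still 1.31 and 1.26. Leaving out each library gave 0 to 42. For the interaction the count of 2 became 44 with DESeq2 and 1 to 10 with each library left out, and limma did not call si:ch211-181d7.1_2 (adjusted p = 0.69 and 0.08). The DEGs of Refed_3h vs. Fast numbered 1173 with no fold threshold, 867 by limma on log2(TPM + 0.1), 669 by DESeq2 and 239 to 445 with each library left out, the lowest without replicate 1 of Refed_3h and 267 without replicate 1 of Fast. Those of Refed_8h vs. Fast numbered 323 with no fold threshold, 369 by DESeq2 and 155 to 222 with each library left out. Those of Refed_8h vs. Refed_3h numbered 1373 with no fold threshold, 306 by limma on log2(TPM + 1) and 341 to 589 with each library left out, the lowest without replicate 4 of Refed_8h and 355 without replicate 1 of Refed_8h. The causes were not tested. The difference in total counts was -1008117 to 295303 with each library left out, and turned to 99555 without replicate 4 of Refed_3h and 295303 without replicate 4 of Refed_8h. All 16 genes whose set difference was refitted kept their direction in every alternative that tested them (23 for amh and 25 for the others). They were picked with their set differences known and most were separated. Their direction could therefore hardly turn, and that it held is no support for the split. Of 10 lists, the circadian clock (0.07) and the skin epithelium (-0.14) turned with a cell cycle score as a covariate. That score was itself apart between the sets in each condition, so such changes follow in part from its pattern. The collagens (-0.07) turned in Refed_3h alone. The median of growth hormone and IGF genes ranged from -0.50 to -0.02 and that of immediate early genes from 0.17 to 0.65. The cell cycle median was 0.07 with its own score as a covariate and 0.61 to 0.91 in the other alternatives.

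Same-numbered libraries of different conditions correlated at -0.19 to 0.27 in their deviations from the condition means, with 7 of 12 pairs over 0.1. The median was 0.12 for the same number, 0.069 for the same set with another number, and -0.089 across sets. As not every pair passed 0.1, the numbers were not taken to pair the fish. A weak pairing could also fail such a rule, so it does not settle whether they were paired. The closest library of another condition had the same number for 8 of 12 libraries and was of the same set for 10 of 12. Of the pairs across conditions, 12 shared the number, 12 the set only, and 24 were of different sets. The sets were chosen on these same counts, so closeness within a set, and with it within a number, follows in part from the choice. With the replicate block the count between the sets was 4, and the DEGs were 368, 179 and 499 in the order above. Low counts limit the gonad genes, most of which did not pass the filter.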
